A study of Mus musculus with 12 samples.

Results

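The genes described here are the 7 cyclin-dependent kinase (CDK) inhibitors of the mouse, taken from the count table by their gene symbols: 3 of the Cip family (Cdkn1a, Cdkn1b and Cdkn1c) and 4 of the Ink4 family (Cdkn2a, Cdkn2b, Cdkn2c and Cdkn2d), of 55421 genes in all. All 7 were among the 18108 genes that passed the low-count filter, and the fewest counts of any of them in any library was 9. Polyadenylated RNA was sequenced from MOC2, a mouse squamous cell carcinoma line, in 12 libraries, 3 for each of 4 groups. Libraries labelled EV-proficient came from the derivative MOC2-25, and those labelled EV-deficient from MOC2-27. Each derivative was sampled after DMSO, the solvent control, and after 600 nM paclitaxel for 48 h, a drug that stabilises microtubules and was used here to induce senescence. EV stands for extracellular vesicles, the membrane particles that cells shed. The study blocked their release genetically to ask what vesicles of senescent cells contribute to signals sent to immune cells. The labels do not name the blocked gene, and each EV label is a single derivative line, so EV status and line cannot be told apart. Nothing in the labels says that the 3 libraries of a group came from separate cultures, so the p-values measure the spread between these libraries, which may be technical.

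CDK inhibitors hold back the kinases that drive cells from G1 into DNA replication. The Ink4 proteins bind Cdk4 and Cdk6 and keep them from the D-type cyclins, while the Cip proteins bind complexes of cyclins with Cdk2 and other kinases. When Cdk4, Cdk6 and Cdk2 are inhibited, the retinoblastoma protein and its relatives stay bound to the E2F factors and replication genes are kept down. Cdkn1a is the classical target of the transcription factor p53, and Cdkn1a, Cdkn2a and Cdkn2b are widely used as markers of senescence. Cdkn2a encodes 2 unrelated proteins from alternative first exons, Ink4a and Arf, and Arf acts on p53 through Mdm2 and not on a CDK.

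Library totals ran from 23263472 to 62955757 counts, and a floor of 3 counts, which covers counting error only, corresponded to between 0.0492 and 0.121 CPM, the counts scaled to library size. Summed markers of squamous and epithelial cells lay between 3600 and 6650 CPM, although Trp63 and Krt5, which define basal squamous cells, had at most 11 and 8 counts in any library. Other keratins of stratified epithelia were above the floor in every library: Krt14 ranged from 77.4 to 730 CPM over the libraries, Krt17 from 138 to 374 CPM and Krt6a from 2.03 to 336 CPM. The summed level of that list ran from 5600 to 6020 CPM and from 6140 to 6650 CPM in the EV-proficient and EV-deficient DMSO libraries, and from 4070 to 4420 CPM and from 3600 to 3760 CPM after paclitaxel. Its members did not move together. Group means of Krt8 and Krt18, keratins of simple epithelia, were lower after paclitaxel than after DMSO under both labels (895 against 2200 and 971 against 1810 CPM for Krt8, 1040 against 1270 and 718 against 1480 CPM for Krt18). Those of the adhesion gene Epcam were higher (816 against 407 and 535 against 439 CPM), while Krt17 was at 255 against 200 CPM under the EV-proficient and 148 against 361 CPM under the EV-deficient label. Immune markers reached 47.1 CPM, nearly all from Cd68 and Csf1r, while Cd3e had at most 2 counts. The immune sum was higher after paclitaxel (26.5 to 47.1 CPM) than after DMSO (7.5 to 21.6 CPM), as were the fibroblast sum (5.46 to 8.73 against 1.68 to 3.53 CPM) and the endothelial sum (2.75 to 4.35 against 1.77 to 2.60 CPM). Within the immune list, mean Cd68 was higher after paclitaxel under both labels (30.1 against 6.47 CPM and 30 against 7.92 CPM), but Csf1r was higher under the EV-proficient label alone (11.6 against 0.944 CPM) and lower under the EV-deficient one (5.34 against 12.4 CPM). The part of these lists in the results was not tested. A row that the authors added for a dngfr sequence did not follow the EV label. After DMSO it averaged 8.99 ± 3.23 CPM (SD, n = 3) under the EV-proficient and 2.15 ± 0.35 CPM under the EV-deficient label. After paclitaxel the order was the opposite, at 3.24 ± 0.68 CPM under the EV-proficient and 10.9 ± 1.4 CPM under the EV-deficient label. The labels do not say which line carries this sequence, and whether the EV labels were exchanged in 1 of the treatments was not tested. An exchange would set each paclitaxel group against the other DMSO group and would turn the sign of the EV-label difference in that treatment, and the interaction would change with it. Each comparison below therefore refers to libraries as labelled, and the paclitaxel effect averaged over both EV labels, which does not depend on which DMSO group is set against which paclitaxel group, is given beside the comparisons within a label.

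On GRCm38, Cdkn1a lies at chr17:29090976-29100727 on the plus strand, Cdkn1b at chr6:134920401-134925513 on the plus strand, and Cdkn1c at chr7:143458339-143461050 on the minus strand. Cdkn2a (chr4:89274471-89294653) and Cdkn2b (chr4:89306299-89311039) are neighbours on the minus strand, 11645 bases apart with 0 annotated genes between them. Cdkn2c is on the same chromosome at chr4:109660876-109667189, and Cdkn2d is at chr9:21288410-21291407, both on the minus strand. The Ink4a and Arf transcripts share exons and were counted as a single gene, so they cannot be told apart here. A provisional annotated transcript on the strand opposite Cdkn1a (AC167363.2) had at most 11 counts in a library, and the antisense gene Gm44732 at Cdkn1c had 0.

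Promoter windows of RefSeq (GRCm38.p6, from 250 bases before to 50 bases after a transcript start) were found for 6 of the 7 genes, 9 windows in all; Cdkn1c was the gene without an entry. The windows of Cdkn2a and Cdkn2b are shown because these neighbours moved together in the data below, and the upstream start of Cdkn1a because that gene moved in opposite directions under the EV labels. Each is written 5′ to 3′ along the gene's strand, with matches in capitals. The Cdkn1a window is chr17:29090729-29091028, where capitals mark matches to the p53 half-site. The Ink4a start of Cdkn2a is chr4:89282143-89282442, its Arf start is chr4:89294570-89294869, and the Cdkn2b start is chr4:89310983-89311282, where capitals mark GC boxes (GGGCGG on either strand).
Cdkn1a, upstream start: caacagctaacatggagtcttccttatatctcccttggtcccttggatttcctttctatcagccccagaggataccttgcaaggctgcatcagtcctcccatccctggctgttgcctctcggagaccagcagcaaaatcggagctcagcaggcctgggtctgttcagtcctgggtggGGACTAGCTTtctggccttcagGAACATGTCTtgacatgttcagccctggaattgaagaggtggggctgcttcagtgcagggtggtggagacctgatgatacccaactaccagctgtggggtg
Cdkn2a, Ink4a start: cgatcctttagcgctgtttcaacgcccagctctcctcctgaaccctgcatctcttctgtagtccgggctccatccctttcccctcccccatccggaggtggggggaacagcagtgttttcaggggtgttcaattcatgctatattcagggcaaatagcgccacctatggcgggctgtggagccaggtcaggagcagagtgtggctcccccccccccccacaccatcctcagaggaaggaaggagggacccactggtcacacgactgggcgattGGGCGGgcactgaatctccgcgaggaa
Cdkn2a, Arf start: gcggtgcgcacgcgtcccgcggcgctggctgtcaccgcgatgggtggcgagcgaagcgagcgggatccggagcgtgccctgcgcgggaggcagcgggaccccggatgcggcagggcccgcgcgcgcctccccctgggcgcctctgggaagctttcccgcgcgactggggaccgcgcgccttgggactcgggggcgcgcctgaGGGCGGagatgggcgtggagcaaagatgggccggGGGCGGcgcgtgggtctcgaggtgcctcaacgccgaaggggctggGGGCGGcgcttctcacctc
Cdkn2b: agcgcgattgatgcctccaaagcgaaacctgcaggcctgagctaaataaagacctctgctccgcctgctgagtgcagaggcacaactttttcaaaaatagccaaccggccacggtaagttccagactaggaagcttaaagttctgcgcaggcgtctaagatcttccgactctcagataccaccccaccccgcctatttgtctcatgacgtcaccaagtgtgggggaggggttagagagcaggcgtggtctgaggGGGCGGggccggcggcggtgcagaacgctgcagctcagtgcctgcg

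The Cdkn1a window held 2 matches to the p53 half-site on either strand and no GC box. Of all 32851 promoter windows, 8.36% held at least 1 such match and 0.359% held at least 2. The second Cdkn1a start, chr17:29093519-29093818, held 2 GC boxes, 1 SMAD-type CAGACA and no p53 half-site match. GC boxes, of which 35.7% of all windows held at least 1 and 19.5% at least 2, numbered 1 at the Ink4a start, 3 at the Arf start and 1 at Cdkn2b. The Arf window was 77.0% G and C, against 60.3% at the Ink4a start, 57.7% at Cdkn2b and a median of 52.7% over all windows. A start of Cdkn2c at chr4:109665323-109665622 held the E2F motif TTTCGCG, present in 0.849% of windows, together with CAGACA (21.0% of windows) and the E box CACGTG (7.15%). The other Cdkn2c start held 4 GC boxes, Cdkn1b held 1, and Cdkn2d held 5 with 1 p53 half-site match that overlaps a GC box. TATAAA (13.6% of windows) and the second E2F form TTTGGCG (1.56%) were in none of the 9 windows. A match to these letters describes the sequence only, and binding was not measured. The p53 half-site was added to the search after the windows had been seen.

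Per length, Cdkn2a was the most abundant of the 7 transcripts in all 4 groups and Cdkn1c the least. Levels between genes were compared as FPKM, the CPM divided by the kilobases of merged exons. Cdkn2a averaged 75.4 ± 16 FPKM (SD, n = 3) in EV-proficient DMSO, 85.1 ± 11 FPKM in EV-deficient DMSO, 141 ± 2.3 FPKM in EV-proficient paclitaxel and 113 ± 2.2 FPKM in EV-deficient paclitaxel libraries. This placed it between the 96.3 and 98.6 percentile of the tested genes with a length, and its group mean share of the summed FPKM of the 7 genes lay between 63.6% and 66.7%. Cdkn1c averaged from 0.197 to 1.25 FPKM. Under DMSO, Cdkn1a (11 and 11.4 FPKM in EV-proficient and EV-deficient libraries) and Cdkn2b (10.8 and 11.8 FPKM) followed Cdkn2a, and their ranges overlapped within each label. Next came Cdkn2d at 10 and 7.9 FPKM, of which only the EV-proficient range overlapped that of Cdkn2b. Cdkn1b (6.52 and 6.75 FPKM) and Cdkn2c (4 and 4.11 FPKM) were lower in turn without overlap. After paclitaxel Cdkn2b stood alone in the second place, at 34.4 ± 0.49 FPKM in EV-proficient and 24.6 ± 2.4 FPKM in EV-deficient libraries. Behind it came Cdkn1a (14.7 FPKM), Cdkn1b (11.5 FPKM) and Cdkn2d (10.3 FPKM) in EV-proficient libraries, of which Cdkn1b and Cdkn2d overlapped. The EV-deficient paclitaxel libraries had Cdkn1b (11.9 FPKM), Cdkn2d (9.60 FPKM) and Cdkn1a (8.62 FPKM), each overlapping its neighbour. Cdkn2c was sixth in all groups, at 4.34 and 3.14 FPKM after paclitaxel. The order among the middle genes depends on the transcript taken as length: with the longest annotated transcript, Cdkn1a came to 18.7, 25.1, 19.5 and 14.7 FPKM in EV-proficient DMSO, EV-proficient paclitaxel, EV-deficient DMSO and EV-deficient paclitaxel, and ranked above Cdkn1b in every group.

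**Figure D1:**
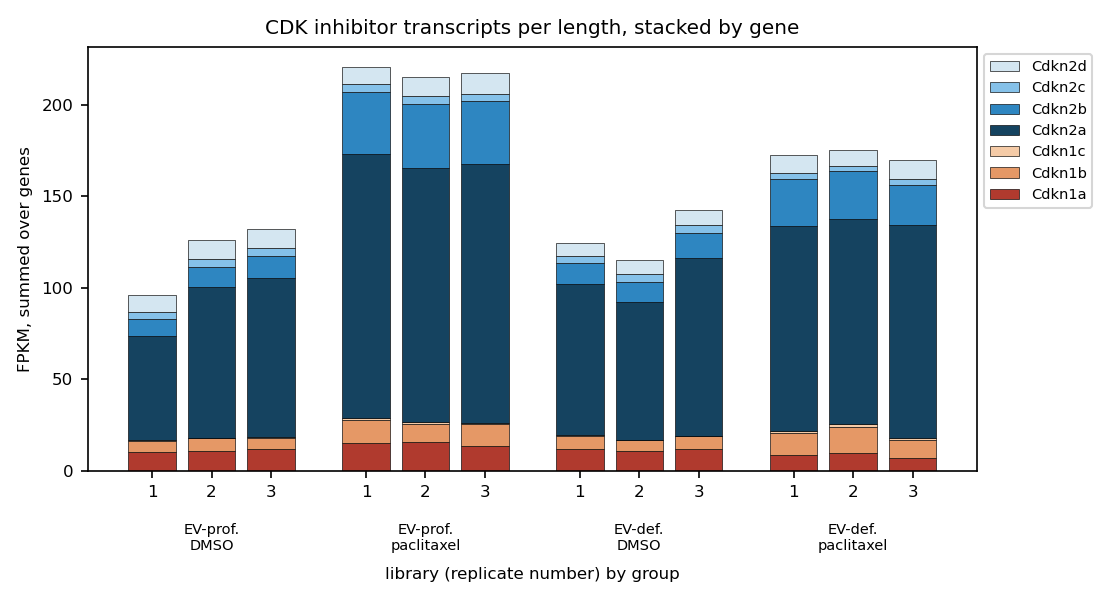
Stacked FPKM of the 7 CDK inhibitor genes in each of the 12 libraries (horizontal axis: replicate number within group; vertical axis: FPKM summed over genes). Cdkn2a makes up most of every bar, and the Ink4 genes together averaged 100 ± 19 and 109 ± 13 FPKM under DMSO and 190 ± 1.8 and 151 ± 0.78 FPKM under paclitaxel (EV-proficient and EV-deficient libraries, SD, n = 3).

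Paclitaxel was first compared with DMSO within each EV label, which asks how the CDK inhibitors differed with the drug among libraries of the same label. In EV-proficient libraries 5 of the 7 genes rose and 0 fell, with Cdkn1c and Cdkn2b the most changed, while 31.1% of all tested genes were called higher and 27.1% lower at an adjusted p of 0.05. In EV-deficient libraries 5 rose (Cdkn1b, Cdkn1c, Cdkn2a, Cdkn2b and Cdkn2d) and 2 fell (Cdkn1a and Cdkn2c), where 32.4% of tested genes were called higher and 30.5% lower. Of all genes called in that comparison 51.5% were higher, and 63.4% with upper-quartile scaling. RNA was taken from whole cultures, so a change in a gene's RNA per cell and a change in the share of cells that express it cannot be told apart. The median log2 fold change of the 7 genes was 0.82 and 0.41 in the respective labels, beside 0.05 and 0.07 over all tested genes. Averaged over both labels, Cdkn1b, Cdkn1c, Cdkn2a and Cdkn2b rose and none of the 7 fell. In that comparison 37.1% of tested genes were called higher and 31.3% lower. Fold changes are log2, fitted with edgeR's quasi-likelihood test on all 12 libraries, with p adjusted over all tested genes.

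**Figure D2:**
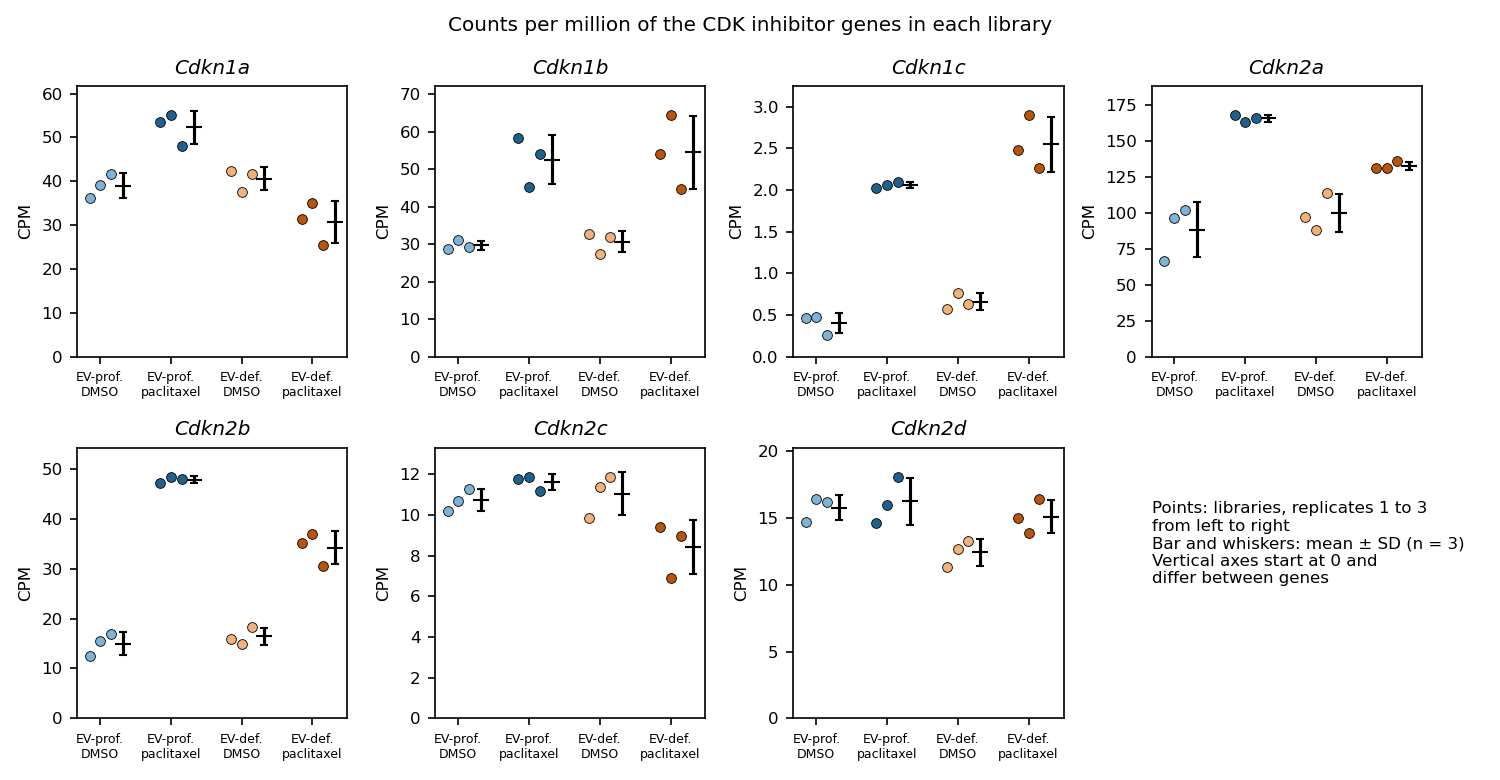
CPM of each CDK inhibitor gene (vertical axes, starting at 0 and differing between genes) in the 4 groups, with a point per library and the mean ± SD (n = 3) beside it. For Cdkn1b, Cdkn1c, Cdkn2a and Cdkn2b, the 6 paclitaxel libraries lie above the 6 DMSO libraries, while for Cdkn1a the paclitaxel libraries lie above DMSO under the EV-proficient label and below it under the EV-deficient label.

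Cdkn1a, which encodes p21 (Cip1), changed in opposite directions under the EV labels. Its levels were 36.1, 39.2 and 41.7 CPM in EV-proficient DMSO libraries and 53.6, 55.1 and 48.1 CPM after paclitaxel. In EV-deficient libraries they were 42.4, 37.6 and 41.7 CPM after DMSO and 31.4, 35 and 25.5 CPM after paclitaxel. All 3 EV-proficient paclitaxel libraries thus lay above all 6 DMSO libraries, and all 3 EV-deficient paclitaxel libraries lay below all 6, whichever DMSO group they are set against. The log2 fold change was 0.43 ± 0.10 (SE; adjusted p = 6.3e-04) under the EV-proficient label and -0.41 ± 0.10 (adjusted p = 8.2e-04) under the EV-deficient label. Leaving out each library in turn, these values ran from 0.33 to 0.47 and from -0.51 to -0.30. Averaged over the labels, the log2 fold change was 0.01 ± 0.07 (95% interval -0.13 to 0.15, adjusted p = 0.912).

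Cdkn1b encodes p27 (Kip1), an inhibitor of cyclin E and Cdk2 that is abundant in resting cells. It measured 28.7, 31.1 and 29.2 CPM in EV-proficient DMSO libraries and 58.2, 45.3 and 53.9 CPM after paclitaxel, without overlap. EV-deficient libraries gave 32.7, 27.4 and 32 CPM after DMSO and 54.1, 64.4 and 44.8 CPM after paclitaxel, again without overlap. The log2 fold change was 0.82 ± 0.11 under each label (adjusted p = 1.7e-06 and 1.0e-06), a 1.77-fold rise. Averaged over the labels it was 0.82 ± 0.08 (adjusted p = 5.2e-09).

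Cdkn1c encodes p57 (Kip2), an imprinted gene best known from development. Its counts were low: 19, 20 and 9 reads in EV-proficient DMSO libraries and 32, 37 and 29 in EV-deficient DMSO libraries. After paclitaxel they were 102, 117 and 52 reads under the EV-proficient label and 133, 134 and 138 under the EV-deficient label. On the CPM scale this was a rise from 0.402 ± 0.12 to 2.06 ± 0.044 CPM and from 0.659 ± 0.10 to 2.55 ± 0.32 CPM (SD, n = 3). No paclitaxel library overlapped a DMSO library. Of the 7 genes it had the highest fold change, at log2 2.33 ± 0.29 (adjusted p = 4.8e-07) and 1.95 ± 0.26 (adjusted p = 1.3e-06), with the widest intervals. Averaged over the labels, the log2 fold change was 2.14 ± 0.20 (adjusted p = 2.9e-09). In the EV-proficient comparison, 6.28% of tested genes had a higher fold change, and 10.4% did in the EV-deficient comparison.

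Cdkn2b encodes p15 (Ink4b), an inhibitor of Cdk4 and Cdk6 known as a target of TGF-beta signalling. It rose from 12.4, 15.5 and 17 CPM to 47.1, 48.5 and 48.0 CPM in EV-proficient libraries. In EV-deficient libraries it rose from 16, 15 and 18.4 CPM to 35.2, 37 and 30.5 CPM. The DMSO libraries of both labels lay together, and the paclitaxel libraries of both labels lay above them and apart from each other. Log2 fold changes were 1.68 ± 0.11 (adjusted p = 2.2e-11) and 1.06 ± 0.10 (adjusted p = 1.1e-08), or 3.21-fold and 2.08-fold. The average over both labels was 1.37 ± 0.07 (adjusted p = 5.8e-13).

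Cdkn2a, the neighbour of Cdkn2b and the gene for p16 (Ink4a) and Arf, measured 66.8, 96.4 and 102 CPM in EV-proficient DMSO libraries and 168, 163 and 166 CPM after paclitaxel. In EV-deficient libraries it measured 97, 88.1 and 114 CPM after DMSO and 131, 131 and 136 CPM after paclitaxel. The groups did not overlap within either label, and the DMSO libraries spread more than the paclitaxel libraries. Log2 fold changes were 0.91 ± 0.11 (adjusted p = 3.4e-07) and 0.41 ± 0.11 (adjusted p = 0.00228), and the average was 0.66 ± 0.08 (adjusted p = 1.3e-07). Because Cdkn2b rose more than Cdkn2a, the FPKM ratio of Cdkn2a to Cdkn2b went from 6.96 ± 0.52 to 4.10 ± 0.12 in EV-proficient libraries and from 7.18 ± 0.20 to 4.63 ± 0.57 in EV-deficient libraries (SD, n = 3). No paclitaxel library reached the ratio of a DMSO library of its label.

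Cdkn2c encodes p18 (Ink4c), the Ink4 gene that accompanies proliferation in many tissues. EV-proficient libraries gave 10.2, 10.7 and 11.3 CPM after DMSO and 11.8, 11.9 and 11.2 CPM after paclitaxel, with overlap. The log2 difference was 0.12 ± 0.12 (95% interval -0.13 to 0.38, adjusted p = 0.415). EV-deficient libraries gave 9.87, 11.4 and 11.9 CPM after DMSO and 9.41, 6.90 and 8.97 CPM after paclitaxel, without overlap. Here the log2 fold change was -0.39 ± 0.12 (adjusted p = 0.0088), and the call was lost with upper-quartile scaling (-0.20, adjusted p = 0.159) or without EV-deficient paclitaxel replicate 2 (-0.26, adjusted p = 0.0603).

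Cdkn2d encodes p19 (Ink4d), which likewise inhibits Cdk4 and Cdk6. It measured 14.7, 16.4 and 16.2 CPM in EV-proficient DMSO libraries and 14.6, 16 and 18.1 CPM after paclitaxel, with overlap and a log2 difference of 0.03 ± 0.11 (95% interval -0.19 to 0.25, adjusted p = 0.811). In EV-deficient libraries it measured 11.3, 12.7 and 13.3 CPM after DMSO and 15, 13.9 and 16.4 CPM after paclitaxel, without overlap, and rose by log2 0.28 ± 0.10 (adjusted p = 0.0232). That call was lost without the low-count filter (0.25, adjusted p = 0.0841) and without EV-deficient DMSO replicate 1 (0.21) or 2 (0.28) or EV-deficient paclitaxel replicate 1 (0.28) or 3 (0.21), with adjusted p from 0.0522 to 0.154. Averaged over both labels, Cdkn2c had a log2 difference of -0.13 ± 0.09 (adjusted p = 0.181) and Cdkn2d of 0.16 ± 0.07 (adjusted p = 0.0653). The Cdkn2d average passed the threshold with upper-quartile scaling (0.28), with a filter of 1 CPM in 3 libraries (0.20) and with a replicate block (0.16, adjusted p = 0.0435).

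**Figure D3:**
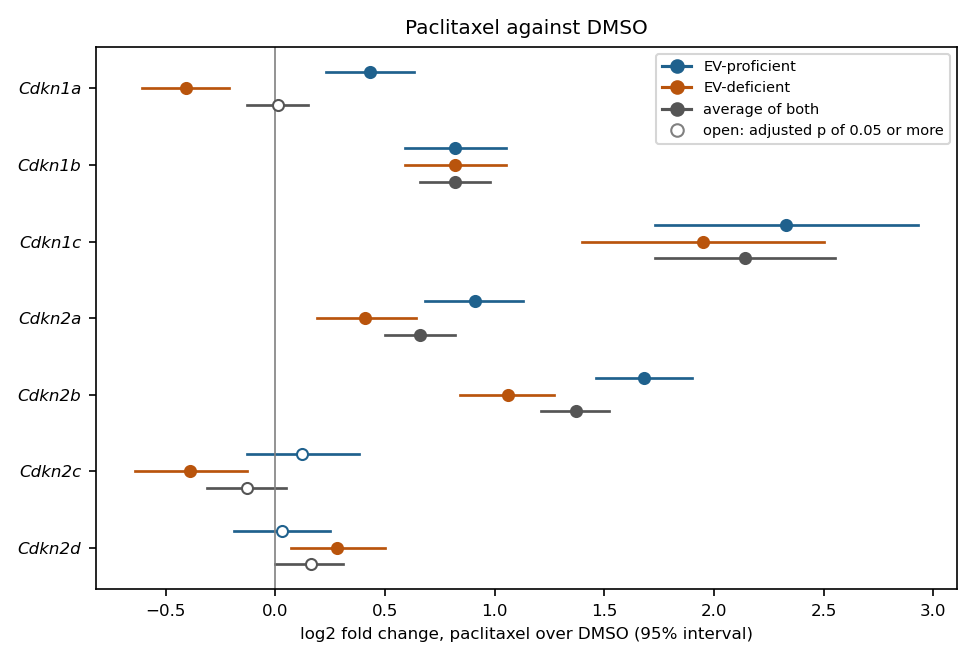
Log2 fold changes of the 7 CDK inhibitor genes, paclitaxel over DMSO, with 95% intervals (horizontal axis), within EV-proficient libraries, within EV-deficient libraries and averaged over both. Filled points passed an adjusted p of 0.05; Cdkn1a lies at 0.43 under the EV-proficient and -0.41 under the EV-deficient label with an average of 0.01, and Cdkn1b at 0.82 in all 3.

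EV-deficient libraries were next compared with EV-proficient libraries within each treatment, which asks how the labelled groups differ with and without the drug. These comparisons use the same libraries as those above and are not independent of them. Under DMSO 0 of the 7 genes were called higher and 1 lower, while 12.4% of tested genes were called higher and 10.6% lower. That balance, 53.9% of calls higher, was 48.2% with median-of-ratios and 47.1% with upper-quartile scaling, 64.1% without the low-count filter and 43.1% without EV-proficient paclitaxel replicate 1. The gene called was Cdkn2d, with 15.8 ± 0.96 CPM under the EV-proficient and 12.4 ± 1.0 CPM under the EV-deficient label (SD, n = 3), a log2 difference of -0.35 ± 0.11 (adjusted p = 0.021). This call was lost without the low-count filter (-0.30, adjusted p = 0.0576), without EV-proficient DMSO replicate 2 (-0.31) or 3 (-0.32) and without EV-deficient DMSO replicate 1 (-0.28) or 2 (-0.36). Cdkn1c was at 0.69 ± 0.30 (95% interval 0.06 to 1.32) without passing after adjustment (adjusted p = 0.111), and its groups did not overlap. The other 5 genes differed by log2 0.04 to 0.17, and their ranges overlapped. Among them Cdkn2a, at 0.17 ± 0.11, passed only when no low-count filter was used (0.22, adjusted p = 0.0219).

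Under paclitaxel, Cdkn1a, Cdkn2a, Cdkn2b and Cdkn2c were lower in EV-deficient than in EV-proficient libraries and none of the 7 was higher, while 21.8% of tested genes were called lower and 16.0% higher. With upper-quartile scaling, 58.2% of all genes called were higher, against 42.4% here. Cdkn1a had 52.3 ± 3.7 CPM on average under the EV-proficient and 30.6 ± 4.8 CPM under the EV-deficient label (SD, n = 3), a log2 difference of -0.78 ± 0.10 (adjusted p = 1.8e-06). For Cdkn2b the means were 47.9 ± 0.68 and 34.2 ± 3.4 CPM (log2 -0.49 ± 0.10, adjusted p = 6.2e-04). Cdkn2c averaged 11.6 ± 0.38 and 8.43 ± 1.3 CPM (-0.47 ± 0.12, adjusted p = 0.00452). These groups did not overlap for any of the 4 genes. Cdkn2a averaged 166 ± 2.7 and 133 ± 2.6 CPM (-0.32 ± 0.11, adjusted p = 0.0232). It did not pass with upper-quartile scaling (-0.23, adjusted p = 0.112), nor without EV-proficient paclitaxel replicate 1 (-0.31) or 2 (-0.33), or EV-deficient paclitaxel replicate 1 (-0.31) or 2 (-0.30). Cdkn1b (0.05, 95% interval -0.17 to 0.28), Cdkn1c (0.31, -0.20 to 0.82) and Cdkn2d (-0.09, -0.31 to 0.12) did not pass. The Cdkn1c groups nevertheless did not overlap (2.02 to 2.1 CPM under the EV-proficient and 2.26 to 2.9 CPM under the EV-deficient label), while those of Cdkn1b and Cdkn2d did.

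**Figure D4:**
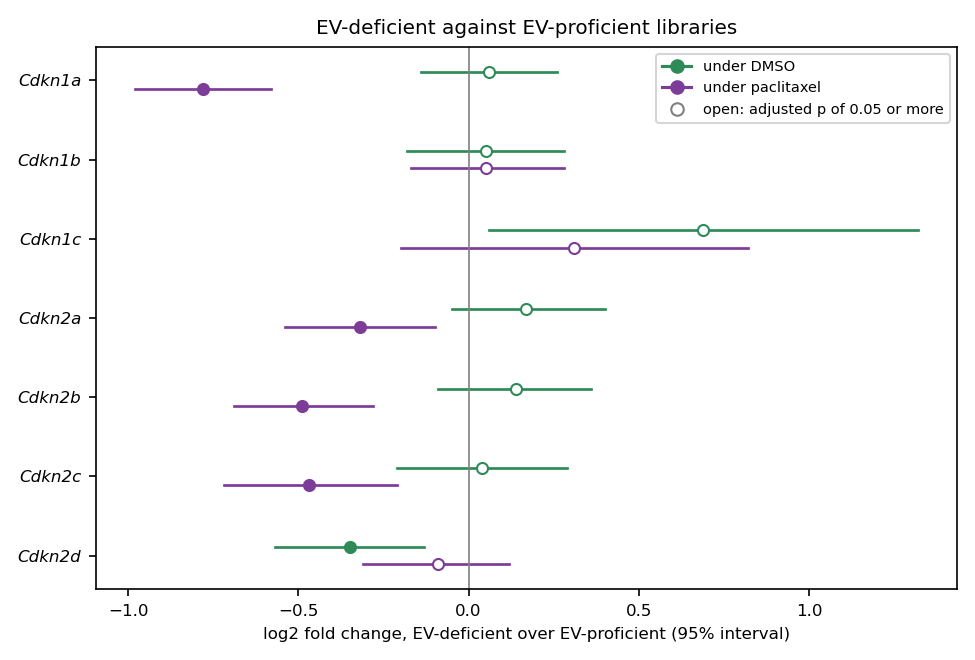
Log2 fold changes of the 7 CDK inhibitor genes, EV-deficient over EV-proficient libraries, with 95% intervals (horizontal axis), under DMSO and under paclitaxel. Filled points passed an adjusted p of 0.05: Cdkn2d alone under DMSO (-0.35), and Cdkn1a (-0.78), Cdkn2b (-0.49), Cdkn2c (-0.47) and Cdkn2a (-0.32) under paclitaxel.

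Whether the paclitaxel effect itself differed between the labels was tested as the interaction, the EV-deficient effect minus the EV-proficient effect. It was negative and passed the test for 4 of the 7 genes and positive for 0, while 23.8% of tested genes passed in the negative and 16.9% in the positive direction. Positive values made up 41.4% of all genes passing, and 53.9% with upper-quartile scaling. With the libraries as labelled, Cdkn1a had -0.83 ± 0.14 (adjusted p = 3.7e-05) and Cdkn2b -0.62 ± 0.15 (adjusted p = 0.00164). Had the EV labels been exchanged in 1 treatment, the interaction would be the sum of the EV-label differences under DMSO and under paclitaxel, with a sign set by the treatment exchanged, in place of the paclitaxel value minus the DMSO value, so the count, the genes that make it up, their signs and their order hold only for the labels as given. The differences under DMSO and under paclitaxel had opposite signs for each of the 4 genes. A sum would therefore be closer to 0 than the value given here. The differences were 0.17 and -0.32 for Cdkn2a and 0.14 and -0.49 for Cdkn2b. For Cdkn1a (0.06 and -0.78) and Cdkn2c (0.04 and -0.47) the DMSO difference was small beside that under paclitaxel. The signs were the same for Cdkn1c (0.69 and 0.31), Cdkn2d (-0.35 and -0.09) and Cdkn1b (0.05 and 0.05), which are not among the 4. For these genes a sum would be farther from 0. The interaction of exchanged labels was not tested. The values of Cdkn2a (-0.50 ± 0.15, adjusted p = 0.0129) and Cdkn2c (-0.51 ± 0.17, adjusted p = 0.0229) did not pass with upper-quartile scaling (-0.37 and -0.38, adjusted p = 0.0626 and 0.0903). Both were also lost without EV-proficient paclitaxel replicate 1 (-0.44 and -0.46). Cdkn2a was further lost without EV-deficient paclitaxel replicate 1 (-0.45), and Cdkn2c without EV-deficient DMSO replicate 3 (-0.47), EV-proficient paclitaxel replicate 2 (-0.44) or EV-deficient paclitaxel replicate 2 (-0.34). For Cdkn1b the interaction was 0.00 (95% interval -0.32 to 0.33), for Cdkn1c -0.39 (-1.20 to 0.43) and for Cdkn2d 0.25 (-0.06 to 0.56). None of these 3 passed.

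The genes around the inhibitors were read from 8 lists of pathway partners, each given by its counts and median beside the median of all tested genes (0.05 under the EV-proficient and 0.07 under the EV-deficient label). The counts are to be read against all tested genes, of which 31.1% were called higher and 27.1% lower under the EV-proficient label, and 32.4% and 30.5% under the EV-deficient label. Of 15 genes for cell cycle kinases, cyclins and the CDK-activating kinase, 6 rose and 6 fell with paclitaxel in EV-proficient libraries, and 2 rose and 10 fell in EV-deficient libraries (medians -0.14 and -0.63). Cdk6, a partner of the D-type cyclins, rose by log2 0.62 ± 0.06 (adjusted p = 3.9e-08) under the EV-proficient label and fell under the EV-deficient label (-0.44 ± 0.06, adjusted p = 3.4e-06). Ccne1 and Ccne2, the E-type cyclins that partner Cdk2, changed by -0.51 ± 0.09 and -1.45 ± 0.13 in EV-proficient libraries and by -1.77 ± 0.09 and -1.51 ± 0.13 in EV-deficient libraries, all past the test. Mnat1, a subunit of the CDK-activating kinase, rose by 0.53 ± 0.09 and 0.57 ± 0.09. Summed over the Ink4 genes and set against the sum of Cdk4 and Cdk6, the FPKM ratio went from 0.827 ± 0.15 to 1.65 ± 0.036 in EV-proficient and from 0.687 ± 0.083 to 1.98 ± 0.11 in EV-deficient libraries (SD, n = 3). All 6 paclitaxel libraries exceeded all 6 DMSO libraries in this ratio. Cdk4 itself averaged 100 ± 5.7, 82.9 ± 3.3, 130 ± 3.1 and 55.1 ± 5.0 FPKM in EV-proficient DMSO, EV-proficient paclitaxel, EV-deficient DMSO and EV-deficient paclitaxel libraries. Most of the Ink4 sum was Cdkn2a, whose count includes transcripts of Arf, which does not act on a CDK. Without Cdkn2a the Ink4 sum averaged 24.8 ± 2.4, 49.1 ± 1.3, 23.8 ± 2.0 and 37.4 ± 1.4 FPKM in the same order of groups. Each of these means was below that of Cdk4 alone.

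Downstream, 17 of 18 E2F target genes of replication fell under the EV-proficient label and 18 of 18 under the EV-deficient label (medians -0.83 and -1.44). Cdc6, which loads the replicative helicase, changed most (-1.80 ± 0.12 and -2.32 ± 0.12), and Pcna, the replication clamp, by -0.47 ± 0.07 and -0.98 ± 0.07. The clamp loader subunit Rfc3 fell too (-0.85 ± 0.08 and -0.84 ± 0.08). Of the 13 pocket proteins and E2F factors, 4 rose and 7 fell in EV-proficient and 5 rose and 7 fell in EV-deficient libraries (medians -0.37 and -0.53). Of the 3 pocket proteins, Rb1, the retinoblastoma gene, rose by 0.40 ± 0.13 and 1.32 ± 0.13 and its relative Rbl2 by 1.45 ± 0.08 and 1.20 ± 0.08, while Rbl1, named after its values were seen, was not called (0.11, adjusted p = 0.253, and -0.17, adjusted p = 0.081). E2f7, a repressor, fell (-1.38 ± 0.11 and -1.13 ± 0.11), and E2f2, an activator, had -0.16 ± 0.09 (adjusted p = 0.141) and -1.49 ± 0.09 (adjusted p = 1.1e-11).

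Trp53, the gene for p53, fell under both labels (log2 -0.49 ± 0.11, adjusted p = 4.1e-04, and -0.41 ± 0.10, adjusted p = 0.00177). Of 25 genes in the list of Trp53 and its targets other than Cdkn1a, 10 rose and 6 fell under the EV-proficient label and 7 rose and 7 fell under the EV-deficient label (medians -0.02 and -0.07), beside the shares of all tested genes given above. Trp53inp1, a stress-induced partner of p53, rose from 1.87 ± 0.59 to 32.4 ± 4.3 CPM and from 2.37 ± 0.36 to 43.0 ± 9.0 CPM (log2 4.10 ± 0.19 and 4.18 ± 0.18), and the exonuclease gene Aen fell (-1.11 ± 0.08 and -1.42 ± 0.08). Pmaip1 and Sesn2, chosen after their values were seen, were the 2 genes of that list called in opposite directions, as Cdkn1a was: Pmaip1 had 0.67 ± 0.07 and -0.29 ± 0.07 and Sesn2 had 0.61 ± 0.07 and -0.39 ± 0.07 under the EV-proficient and EV-deficient labels. Of 5 partners of Arf, a list that also holds Trp53, 4 fell and 0 rose under each label (medians -0.52 and -0.58). Npm1, which binds Arf in the nucleolus, fell (-0.52 ± 0.06 and -1.14 ± 0.06), as did the ubiquitin ligase gene Huwe1 (-0.58 ± 0.10 under both labels).

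Of the 14 genes tested (15 listed) for the turnover of Cip proteins, 2 rose and 9 fell in EV-proficient libraries and 0 rose and 11 fell in EV-deficient libraries (medians -0.20 and -0.44). Skp2, the ubiquitin ligase subunit that recognises p27, went from 36.2 ± 0.38 to 29.1 ± 1.8 CPM and from 48.3 ± 2.3 to 21.9 ± 1.5 CPM (log2 -0.32 ± 0.08 and -1.14 ± 0.08). Psme3, a proteasome activator subunit linked to p21 breakdown, fell (-0.94 ± 0.06 and -0.88 ± 0.06). Rnf123, a subunit of a ligase for p27, had 0.47 ± 0.08 (adjusted p = 4.8e-05) and -0.04 ± 0.08 (adjusted p = 0.69), and Skp1a 0.03 ± 0.06 (adjusted p = 0.662) and -0.20 ± 0.06 (adjusted p = 0.00943).

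The list of Polycomb and other regulators of the Ink4 genes had 8 of 20 higher and 6 lower under the EV-proficient label, and 3 higher and 8 lower under the EV-deficient label (medians 0.22 and -0.11), where 31.1% and 27.1%, and 32.4% and 30.5%, of all tested genes were called. Ezh1, a Polycomb methyltransferase, rose by 1.15 ± 0.12 and 1.04 ± 0.12. Id1, an inhibitor of basic helix-loop-helix factors that can repress Cdkn2a, fell (-1.34 ± 0.14 and -0.79 ± 0.13). Cbx2, a chromodomain subunit, had 0.13 ± 0.08 (adjusted p = 0.206) and -0.79 ± 0.08 (adjusted p = 4.8e-08). In the list of TGF-beta, Myc and FOXO regulators, 9 of 18 rose and 5 fell in EV-proficient libraries and 7 rose and 7 fell in EV-deficient libraries (medians 0.18 and 0.09), beside the same shares of all tested genes. Foxo3, a forkhead factor that can activate Cdkn1b, had 1.22 ± 0.07 (adjusted p = 4.2e-12) and 0.11 ± 0.07 (adjusted p = 0.158), and the proliferation factor Foxm1 fell (-0.64 ± 0.08 and -1.13 ± 0.08). Klf6, a zinc-finger factor known to activate Cdkn1a, averaged 571 ± 25 and 115 ± 8.7 CPM in EV-proficient DMSO and paclitaxel libraries, and 130 ± 2.1 and 528 ± 25 CPM in the EV-deficient ones (SD, n = 3). Its log2 fold changes were -2.31 ± 0.07 (adjusted p = 1.1e-16) and 2.02 ± 0.06 (adjusted p = 6.6e-16). Klf4, another zinc-finger factor known to activate Cdkn1a, had log2 fold changes of the other sign in each label, 0.76 ± 0.07 (adjusted p = 8.6e-09) and -0.77 ± 0.07 (adjusted p = 3.6e-09), and was named after its values were seen. In both labels Cdkn1a had the sign of Klf4, a match already known when Klf4 was named. Regulation of Cdkn1a by either factor was not tested. Like the dngfr row, Klf6 was high in EV-proficient DMSO and EV-deficient paclitaxel libraries and low in the other groups.

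**Figure D5:**
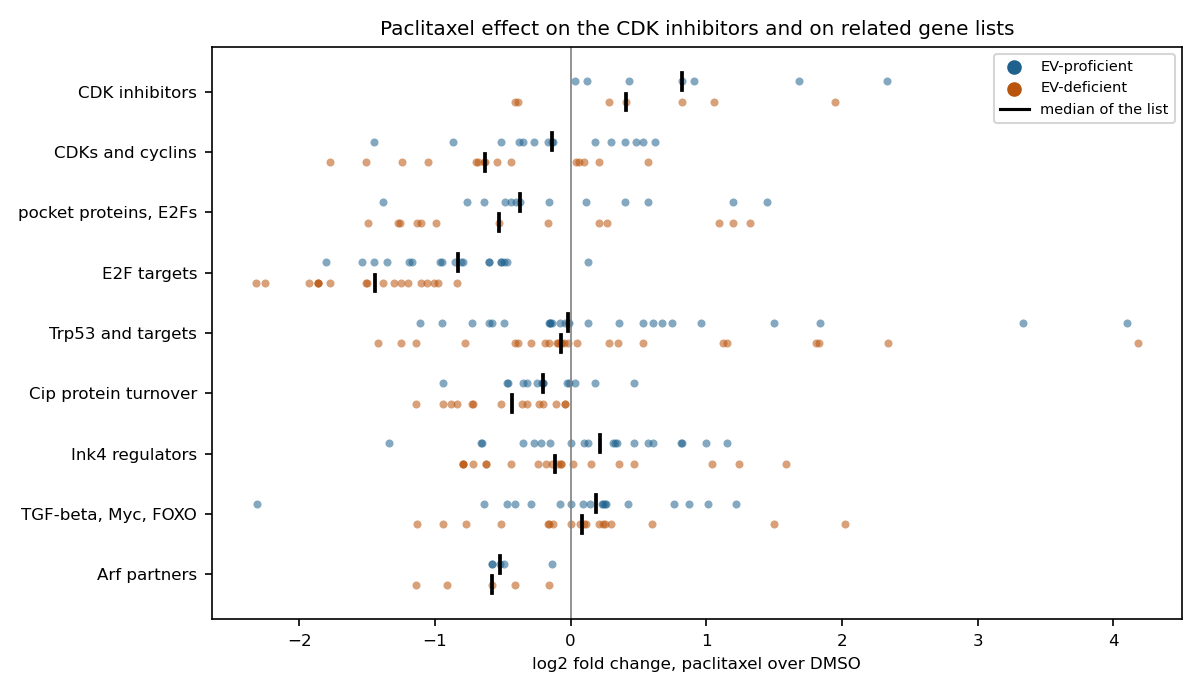
Log2 fold changes, paclitaxel over DMSO (horizontal axis), of the 7 CDK inhibitors and of the members of 8 related lists, with a point per gene for each EV label and a bar at the median. The inhibitors have medians of 0.82 (EV-proficient) and 0.41 (EV-deficient), and the E2F targets of replication have medians of -0.83 and -1.44.

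Other markers of growth arrest were read beside the inhibitors. The proliferation marker Mki67 fell (log2 -0.43 ± 0.09 and -0.51 ± 0.09 under the EV-proficient and EV-deficient labels), as did Lmnb1, a nuclear lamina gene whose loss accompanies senescence (-0.60 ± 0.06 and -0.94 ± 0.06). Glb1, the gene of the lysosomal enzyme behind the senescence-associated beta-galactosidase stain, rose by 0.67 ± 0.09 and 1.09 ± 0.09. All 6 of these values passed the test.

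How the 7 genes varied with each other over the 12 libraries was described by Pearson's r of log2 CPM. The libraries are not independent of the groups, so the paclitaxel contrast enters these values. Averaged over both labels it was called for Cdkn1b, Cdkn1c, Cdkn2a and Cdkn2b, and not for Cdkn1a, Cdkn2c and Cdkn2d. Its share of the variation was not measured. The neighbours Cdkn2a and Cdkn2b had r = 0.95, Cdkn1b and Cdkn1c r = 0.92, and Cdkn1b and Cdkn2b r = 0.92. Cdkn1a was not close to any of these, with r = 0.06 to Cdkn1b, -0.08 to Cdkn1c, 0.33 to Cdkn2a and 0.28 to Cdkn2b, and had its highest value to Cdkn2c (0.64). Among 9935 other tested genes with a mean of at least 5 CPM, those most like Cdkn1a were Psph, a serine synthesis enzyme gene (r = 0.958), and Lman2l (0.955). Cdkn1b was most like Rabgap1l (0.981) and Vmp1 (0.978), and Cdkn1c most like Fam214a (0.985) and Plekhs1 (0.983). Cdkn2a was most like Junb, an AP-1 factor (0.988), and Irf2bpl (0.973), and Cdkn2b most like Arl4c (0.992) and Syt17 (0.991). Cdkn2c was most like Ogfod3 (0.944) and Mcm8, a helicase gene (0.926), and Cdkn2d had the loosest matches, Ptp4a3 (0.904) and Mybl1 (0.858).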

How the data were processed

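Stranded libraries of polyadenylated RNA were made from 12 samples (labels' protocols). The deposited table gives raw counts per gene, without normalization by the authors, for 55421 Ensembl genes and 2 added rows (gfp, with 0 counts, and dngfr). The added rows entered neither library sizes nor tests and held at most 0.00142% of a library's counts. STAR 2.5.0a and GRCm38 are named in the submitters' processing notes. The counting program, annotation release and use of strand are not given in the sources used here, so reads of overlapping genes on opposite strands may not be separable.

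The analysis used edgeR 4.0.16 in R 4.3.3. Of 35104 genes with reads, filterByExpr (minimum count 10) kept 18108. TMM factors (0.89 to 1.15) scaled the libraries, and all 12 entered a quasi-likelihood fit with group means as coefficients (common dispersion 0.00956). The 5 planned comparisons were paclitaxel within each EV label, EV label within each treatment, and the interaction; the average paclitaxel effect was added after the data had been seen. Benjamini-Hochberg adjustment covered all tested genes, with a threshold of 0.05. The SE is the absolute log2 fold change over the root of F. FPKM used merged exon lengths of GENCODE M21 (GRCm38), which held 99.5% of the genes. Replicates differed by more than sampling noise (chi-square per degree of freedom 4.2 to 27.8).

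The 7 genes and the 8 lists were chosen with earlier results of these data known. A gene of the immune marker list is not reported here and was left out of its sum. Named list genes were those with the highest and lowest log2 fold change among called genes in each paclitaxel comparison, and for each inhibitor the 2 genes of highest Pearson r (prior count 2), beside Mki67, Lmnb1, Glb1 and Trp53. Same-numbered replicates did not deviate together (18 correlations from -0.081 to 0.097), so the numbers were not used to pair samples. Alternatives were other scalings and filters, DESeq2 1.42.0, limma-voom (limma 3.58.1), a replicate block, only the groups compared, leaving out each library, another transcript length and Spearman's rho for likeness. On simulated counts for the EV-proficient paclitaxel comparison over 18108 genes, 58 genes were changed 1.5-fold, 73 were changed 2-fold and 69 were changed 4-fold. Of these edgeR recovered 51.7%, 65.8% and 79.7%, with 8 false calls in all. In the data 31.1% of tested genes were called higher and 27.1% lower in that comparison. With so few genes changed, the adjusted threshold was stricter in the simulation, so these shares do not give the recovery in the data.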

Additional observations from a re-analysis of the deposited data

Results flagged for a closer look

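The paclitaxel effect differed between the EV labels for 4 of the 7 CDK inhibitors by the interaction test of edgeR, with log2 values of -0.83 (Cdkn1a), -0.50 (Cdkn2a), -0.62 (Cdkn2b) and -0.51 (Cdkn2c), each the EV-deficient minus the EV-proficient effect. The count and the genes that make it up hold only for the EV labels as given, and an exchange of them in 1 treatment was not tested. Of all tested genes, 23.8% passed in the negative and 16.9% in the positive direction. With upper-quartile scaling Cdkn2a and Cdkn2c did not pass (adjusted p = 0.0626 and 0.0903). For Cdkn1a the effects had opposite signs and both were called (0.43 and -0.41), for Cdkn2a and Cdkn2b both were positive, and for Cdkn2c they were 0.12 (not called) and -0.39.

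The added dngfr row, which no comparison used, had mean levels of 8.99 CPM after DMSO and 3.24 CPM after paclitaxel under the EV-proficient label, and of 2.15 CPM after DMSO and 10.9 CPM after paclitaxel under the EV-deficient label. Every library was above its floor of 3 counts. The part of whatever sets this row in the 4 interactions was not tested.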

How the results depend on the processing

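Over 20 settings, the 42 fold changes of the 7 genes were recomputed 826 times: 774 kept direction and side of the threshold, 25 lost a call, 4 gained one and 23 changed sign, and 28 of the 42 results changed under no setting. The count of genes called was within 1.5 times the reported one in 112 of 118 cases. The exceptions were the EV-label comparison under DMSO, which ran from 0 to 1 when libraries were left out in turn (1 reported), and the interaction, at 2 with upper-quartile scaling and from 2 to 4 when libraries were left out (4 reported). Leaving out libraries moved uncalled values across 0 for paclitaxel in EV-proficient libraries (Cdkn2d, -0.08 to 0.06), the EV-label difference under DMSO (Cdkn2c, -0.01 to 0.12) and under paclitaxel (Cdkn1b, -0.08 to 0.18), the interaction (Cdkn1b, -0.09 to 0.17) and the average paclitaxel effect (Cdkn1a, -0.07 to 0.04). Cdkn2d under paclitaxel was 0.00 with upper-quartile scaling, and the Cdkn1b interaction was -0.06 without a filter and 0.00 with limma-voom. The causes were not tested. Upper-quartile scaling raised the median of all tested genes from 0.07 to 0.26 for paclitaxel in EV-deficient libraries, from 0.07 to 0.19 for the average and from -0.04 to 0.08 for the interaction. Since numbers did not pair the samples, the fit with the replicate block serves as an alternative only: it called 5, 7, 1, 4 and 4 genes in the 5 planned comparisons, as reported, and 5 against 4 for the average. With the longest transcript as length, Cdkn2a came to 98.8, 185, 111 and 148 FPKM (EV-proficient DMSO and paclitaxel, EV-deficient DMSO and paclitaxel). By Spearman's rho, 0 of the 2 most similar genes were shared for Cdkn1a, Cdkn1b and Cdkn2c, and 1 of 2 for Cdkn1c, Cdkn2b and Cdkn2d, so the named pair changed for 6 of the 7 genes. Depth limits Cdkn1c most, with as few as 9 counts in a library.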
